A study of Mus musculus with 15 samples.

Results

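Endothelial cell genes are a set of 32 genes known for their expression in the cells that line blood and lymph vessels, listed by symbol. Of these, 31 had a probe set that the platform annotation pairs with that symbol alone, out of 18193 genes measured. Tspan7, the other listed gene, had none and is not analysed here. Where a gene had several probe sets, the one that was brightest on average across the 15 arrays was used.

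The samples were pieces of lung cut from frozen sections by laser capture microdissection and measured on 15 Affymetrix arrays. All mice, those that gave normal cells included, carried a knock-in K-RasG12V allele, which also expresses a colour marker, and had received Cre recombinase through an adenovirus 3 months before, per the labels. There were 8 arrays of normal cells and 7 of early hyperplastic lesions, about 500 cells a lesion, of which the source names call 3 H1 and 4 H2. The design text states that both were cut from shared sections. The sources used here do not give the basis of the H1 and H2 labels, the number, age and strain of the animals or which captures share a mouse. Captures of the same animal are not independent, so p-values over arrays may be too small where captures of a group share an animal and too large where captures of different groups do.

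The vessel lining of the lung is a single layer of endothelial cells that exchanges gas and controls the passage of fluid and leukocytes. Its cells are held together by junction proteins such as VE-cadherin (Cdh5) and claudin-5 (Cldn5), and they receive signals from vascular endothelial growth factors, angiopoietins and adrenomedullin. ETS-family factors such as Erg and SOX factors such as Sox17 maintain endothelial identity, and lung capillaries hold 2 kinds of cell, one marked by Car4 and Ednrb and the other by Gpihbp1 and Aplnr.

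All values are log2 signals, so that a difference of 1 is a doubling, and ± after a difference is its standard error (SE). Calls rest on limma, a linear model fitted over all 18193 genes, with adjusted p under 0.05. The median of all probe set means was 3.99, and values near or below it lie close to the background, where the size of a difference is not well determined. By this mark, 28 of the 31 genes had a mean above it, and Tie1, Sox18 and Nos3 did not. The number of arrays limits the precision. In such bulk captures, fewer endothelial cells and less RNA per endothelial cell cannot be told apart.

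Arrays differed in more than these genes. The standard deviation of all gene values within an array ranged from 1.14 to 1.67 in normal cells, from 1.31 to 1.49 in H1 and from 1.52 to 1.78 in H2, and the 2 narrowest were normal replicates 2 and 8. A measure of RNA state, the Actb control signal at the 3′ end minus that at the 5′ end, was -0.63 ± 0.62 on normal arrays (SD, n = 8), -0.70 ± 0.60 on H1 arrays (n = 3) and -0.0028 ± 0.23 on H2 arrays (n = 4). The same measure for Gapdh was well above 0 in each group, at 2.53 ± 0.59, 2.54 ± 0.35 and 3.32 ± 0.86 in the same order. The captured tissue held lung markers. The mean of 10 alveolar type 2 (surfactant-making) cell markers ranged from 5.13 to 9.87 in normal cells, from 8.01 to 9.52 in H1 and from 8.76 to 10.08 in H2.

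Most endothelial genes lay lower in lesions than in normal cells, but none was called. Between lesions and normal cells, 26 of 31 had a difference below 0, where 57.7% of all genes did, and the median difference was -0.39, against -0.06 for all genes. Limma called 0 of the 31, while 0.011% of all genes were called lower and 0.28% higher, and for 0 of them did all lesion arrays lie below all normal arrays (0.0385% of all genes). At an unadjusted p under 0.05, 8 were lower and 0 higher, which is 25.8% lower beside 4.66% of all genes, of which 8.1% were higher. With each array centred on its median, 25 of 31 were below 0, beside 47.5% of all genes.

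In H1 against normal, 26 of 31 were below 0 (56.5% of all genes), with a median of -0.43, and 2 were lower and 0 higher at an unadjusted p under 0.05 (2.39% and 1.85% of all genes). For 0 of them did the H1 arrays lie below all normal arrays (0.896% of all genes). In H2 against normal, 22 of 31 were below 0 (53.7% of all genes), with a median of -0.36. There 9 were lower at an unadjusted p under 0.05, or 29.0% beside 8.7% of all genes, and 1 was higher, where 12.7% of all genes were. Limma called 0 of 31 in either comparison, beside 0.011% of all genes in H1 and, in H2, 3.38% (0.495% lower and 2.89% higher). For 1 gene, Clec14a, the H2 arrays lay below all normal arrays and for 0 above them (1.08% and 2.7% of all genes). H1 and H2 were compared with the same normal arrays.

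**Figure D1:**
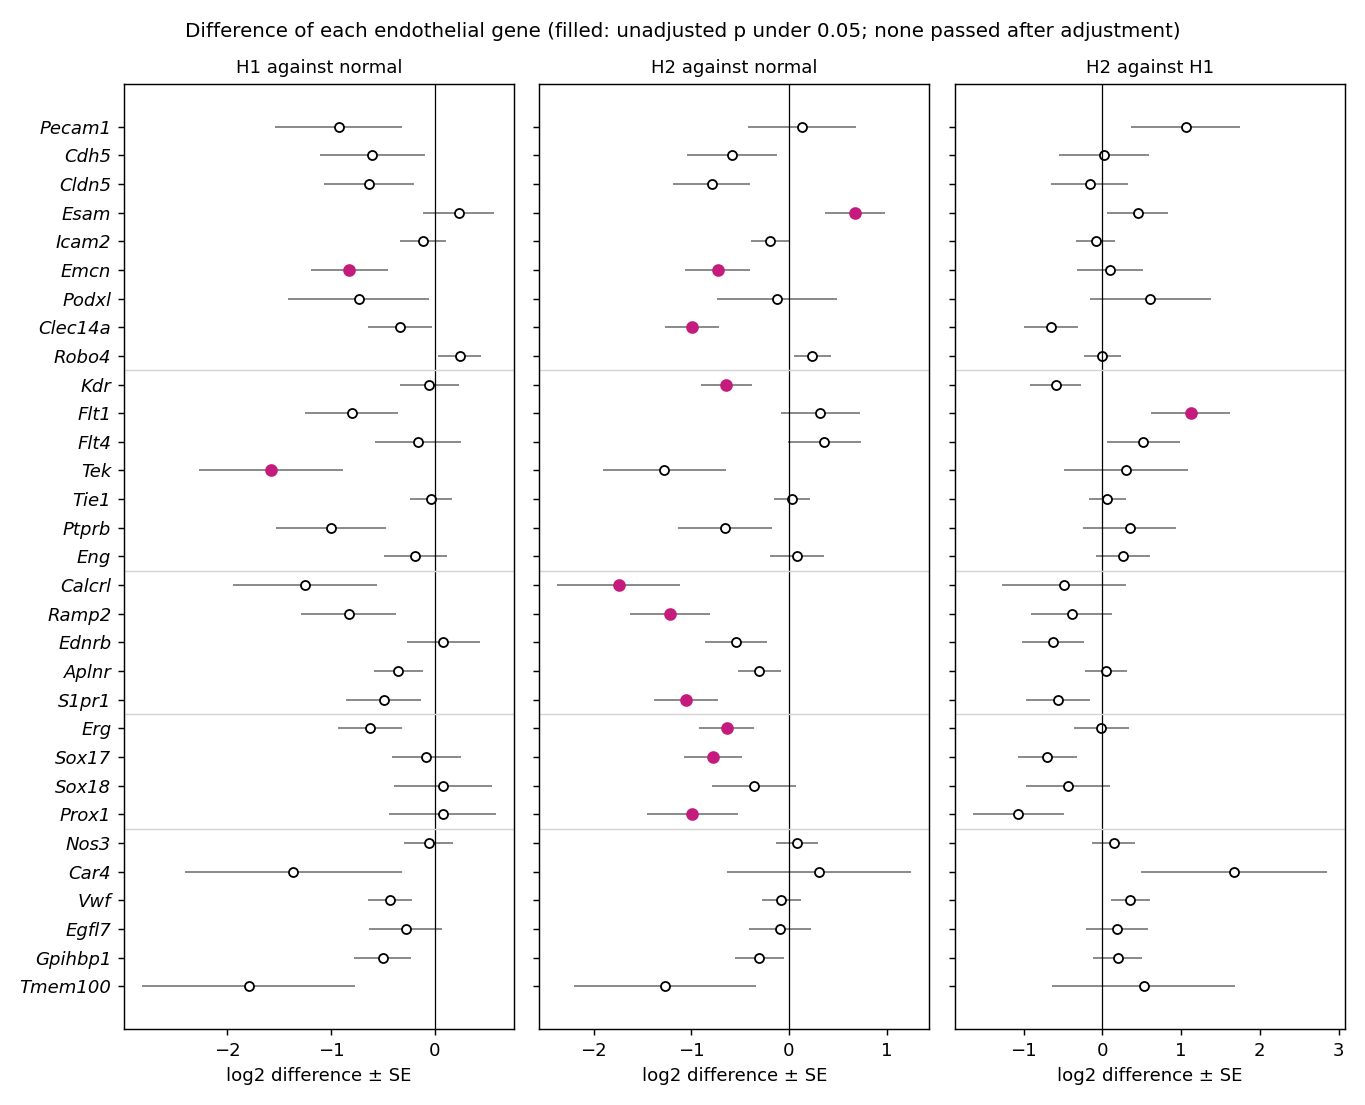
Log2 difference (x axis, ± SE) of each of the 31 endothelial genes (y axis, grouped by role) in H1 against normal, H2 against normal and H2 against H1. Filled points had an unadjusted p under 0.05, and none had an adjusted p under 0.05. In H2 against normal, Calcrl, Tek and Tmem100 lie farthest to the left, at -1.74, -1.28 and -1.27.

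The largest difference in all lesions was that of a G protein-coupled receptor, and all 5 genes of this class (4 receptors and 1 partner protein) were below 0 there. Calcrl encodes the calcitonin receptor-like receptor, which with the partner protein Ramp2 forms the adrenomedullin receptor of vessels. Calcrl lay between 5.53 and 9.17 on the normal arrays, with a median of 8.45. It was 6.46, 5.84 and 7.01 on the H1 arrays and 6.08, 6.49, 6.03 and 5.18 on the H2 arrays. All 7 lesion arrays were below the normal median, but they overlapped normal replicates 2 and 8, at 5.53 and 5.61. The difference was -1.53 ± 0.52 for all lesions (limma adjusted p = 0.231), -1.25 ± 0.70 for H1 and -1.74 ± 0.63 for H2 (adjusted p = 0.13).

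Ramp2, which carries this receptor to the cell surface and sets its ligand, lay between 4.69 and 7.26 on the normal arrays, with a median of 5.15. Its values were 4.93, 4.60 and 4.58 in H1 and 4.26, 4.65, 3.58 and 4.79 in H2, so that every lesion array was below the normal median and 5 of the 7 lay below every normal array. Ramp2 differed by -1.05 ± 0.35 in all lesions (limma adjusted p = 0.217) and by -1.22 ± 0.41 in H2 (limma adjusted p = 0.109). Receptor and partner were therefore both among the 8 genes lower at an unadjusted p under 0.05.

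S1pr1, the receptor for sphingosine-1-phosphate that tightens the endothelial barrier, lay between 4.73 and 6.79 on the normal arrays, with a median of 5.61. It was 4.90, 5.17 and 5.42 in H1 and 5.23, 4.25, 4.60 and 4.32 in H2. All lesion arrays lay below the normal median, and 3 of the 4 H2 arrays lay below every normal array. The difference was -1.05 ± 0.33 in H2 (limma adjusted p = 0.0844) and -0.81 ± 0.29 in all lesions. The endothelin receptor Ednrb (5.24 ± 0.51 in normal cells, SD, n = 8) differed by 0.08 in H1 and -0.55 in H2. The apelin receptor Aplnr (5.20 ± 0.15) differed by -0.35 and -0.30, and neither had an unadjusted p under 0.05.

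Of the 7 receptor kinases and their partners, Tek differed most. Tek encodes Tie2, the angiopoietin receptor that keeps vessels quiescent. It lay between 5.91 and 9.88 on the normal arrays, with a median of 8.53. The H1 arrays read 6.22, 6.28 and 7.17 and the H2 arrays 6.59, 6.71, 6.38 and 7.74, all below the normal median. Normal replicates 8, 4 and 2 lay in or below the range of the lesions, at 7.63, 6.30 and 5.91. Tek differed by -1.41 ± 0.52 in all lesions (limma adjusted p = 0.269), by -1.58 ± 0.70 in H1 and by -1.28 ± 0.63 in H2, where the unadjusted p was under 0.05 in H1 and not in H2.

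The sequences around the annotated starts of Calcrl and Tek are shown because these genes had 2 of the 3 largest differences of the set in all lesions. They come from RefSeq (GRCm38.p6) and run 5′ to 3′ on the strand of the gene, from 250 bases before the start to 50 after it. Calcrl is at chr2:84425217-84425516 on the minus strand and Tek at chr4:94739039-94739338 on the plus strand. Capitals mark matches to an ETS core (AGGAAG or CGGAAG) or a SOX core (ACAATG or ACAAAG), searched on both strands; these motifs do not overlap each other in either window.
Calcrl: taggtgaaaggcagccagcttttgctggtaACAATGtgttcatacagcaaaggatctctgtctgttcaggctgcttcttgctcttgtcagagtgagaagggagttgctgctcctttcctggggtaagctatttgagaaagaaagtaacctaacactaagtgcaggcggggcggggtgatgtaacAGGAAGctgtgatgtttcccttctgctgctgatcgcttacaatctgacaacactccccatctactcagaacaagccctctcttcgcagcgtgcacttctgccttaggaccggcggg
Tek: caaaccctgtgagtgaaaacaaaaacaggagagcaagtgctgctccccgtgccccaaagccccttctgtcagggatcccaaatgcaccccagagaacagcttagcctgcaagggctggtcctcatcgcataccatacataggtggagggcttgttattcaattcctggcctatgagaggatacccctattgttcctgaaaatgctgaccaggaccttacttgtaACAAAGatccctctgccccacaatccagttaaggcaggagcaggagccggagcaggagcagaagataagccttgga
The Calcrl window held 1 ETS match and 1 SOX match, and the Tek window held 1 SOX match and 0 ETS matches. Of the 16 measured genes of the set with a window in the table, 9 had an ETS match and 6 a SOX match in at least 1 window, where 49.8% and 31.7% of all genes did. A match describes these letters only.

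Ptprb encodes VE-PTP, a phosphatase that acts on Tie2 and on VE-cadherin. It lay between 5.56 and 8.37 on the normal arrays, with a median of 7.04. It was 5.96, 5.64 and 6.52 in H1 and 6.72, 6.01, 6.51 and 6.29 in H2, below the normal median on each lesion array but not below normal replicates 2 and 8, at 5.59 and 5.56. Ptprb differed by -0.80 ± 0.40 in all lesions (limma adjusted p = 0.414).

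The 3 receptors for vascular endothelial growth factors had smaller differences than Tek in all lesions. Kdr (VEGFR2), the main receptor of VEGF-A, was low throughout, between 3.82 and 5.31 on the normal arrays, with a median of 4.13. It was 4.60, 3.93 and 4.14 in H1 and 3.32, 4.06, 3.36 and 3.78 in H2, where 3 of 4 arrays lay below every normal array. Kdr differed by -0.05 ± 0.29 in H1 and by -0.64 ± 0.26 in H2 (limma adjusted p = 0.172), and its H2 mean of 3.63 is below the background mark.

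Flt1 (VEGFR1), which binds VEGF-A and limits its supply, lay between 4.06 and 7.07 on the normal arrays, with a median of 5.17. It was 3.90, 5.25 and 4.49 in H1 and 5.72, 5.39, 5.56 and 6.00 in H2, and these did not overlap each other. By the probe sets used, Flt1 was the 1 gene of the set with an unadjusted p under 0.05 between the lesion types. It was higher in H2 by 1.12 ± 0.50 (limma adjusted p = 0.387). Its further probe sets, with means of 4.69, 4.59 and 4.41, did not all share this direction. They differed between H2 and H1 by -0.27 ± 0.42, 0.59 ± 0.41 and -0.23 ± 0.25. Flt4 (VEGFR3), the receptor of lymphatic growth factors, lay between 4.91 and 7.74 on the normal arrays, with a median of 6.36, at 6.11, 5.91 and 6.16 in H1 and at 6.39, 7.13, 6.34 and 6.46 in H2. Its differences from normal were -0.16 ± 0.41 and 0.36 ± 0.37, neither with an unadjusted p under 0.05. In H2 against normal, the signs of Flt1 and Flt4 turned with the spread of the array as a covariate, to -0.35 and -0.46.

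Tie1, the orphan relative of Tie2, averaged 3.28 on normal arrays, 3.24 on H1 arrays and 3.31 on H2 arrays, all below the background mark. Eng (endoglin), a co-receptor for bone morphogenetic protein 9 (BMP9), averaged 4.82 ± 0.52, 4.63 ± 0.38 and 4.90 ± 0.31 in the same order. Its differences of -0.19 in H1 and 0.08 in H2 were smaller than the spread between arrays.

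**Figure D2:**
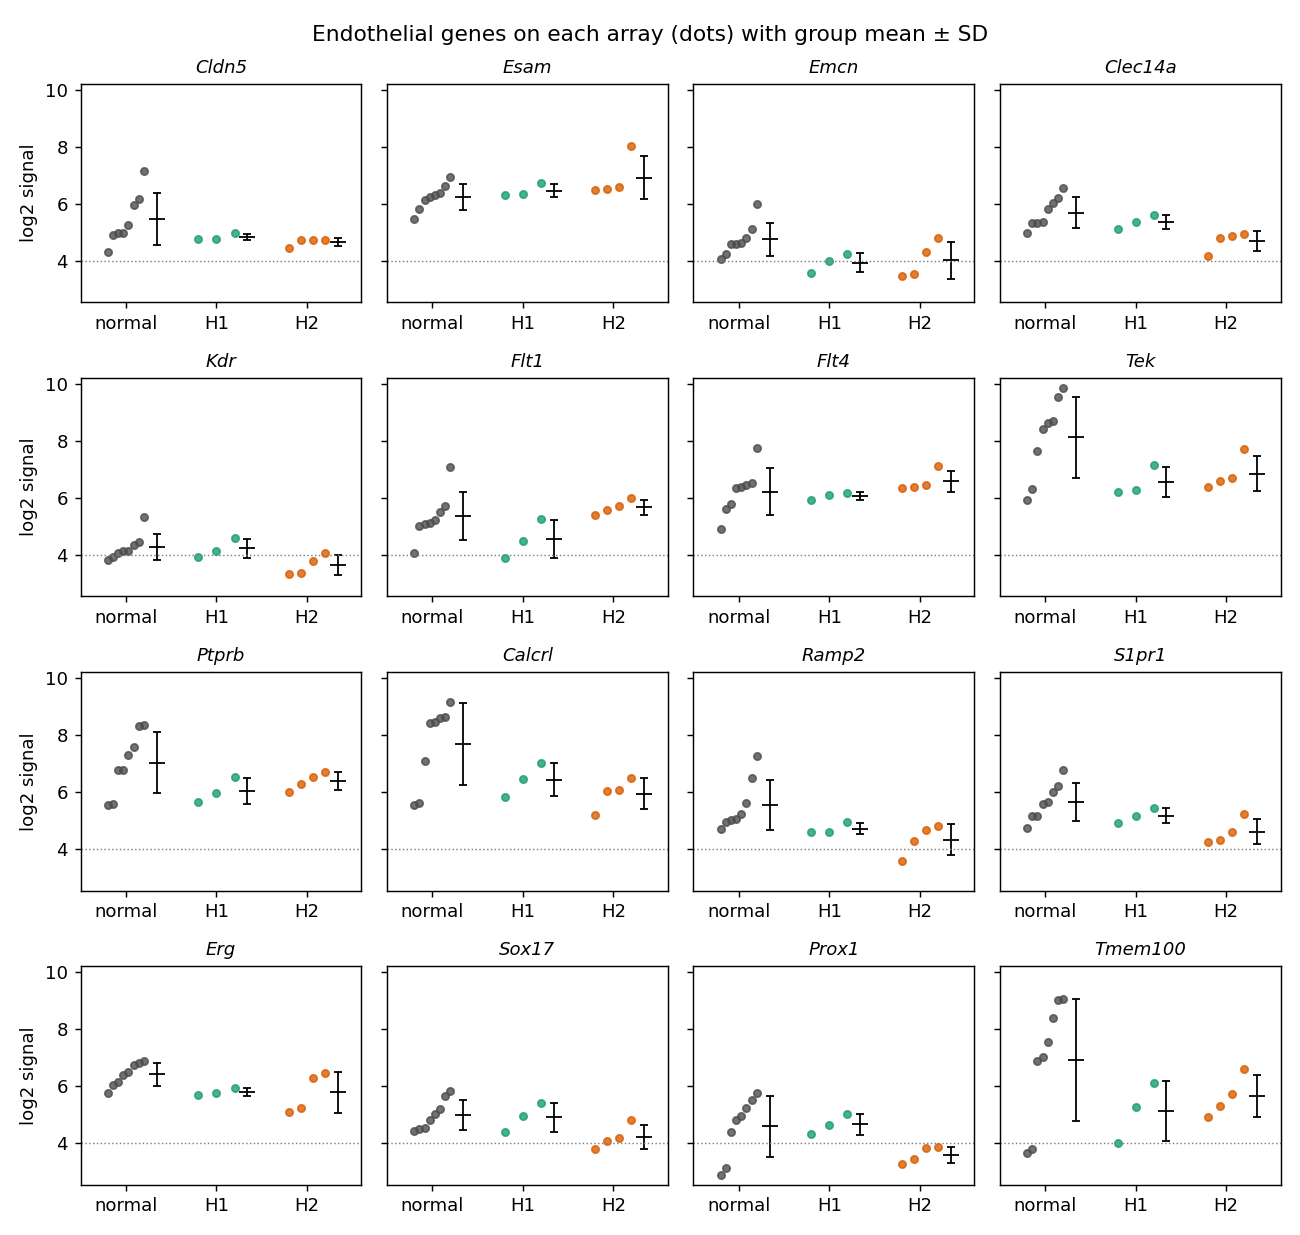
Log2 signal (y axis) on each array (dots) by group (x axis) for the 16 endothelial genes described array by array, with the group mean ± SD in black and the median of all probe set means as a dotted line. Normal arrays spread widely for Tek, Calcrl, Ptprb and Tmem100, and their lowest arrays reach the level of the lesions.

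Of the 9 junction and surface adhesion genes, 7 were below 0 in lesions. Clec14a, a C-type lectin of the endothelial surface, lay between 4.96 and 6.54 on the normal arrays, with a median of 5.58. It was 5.10, 5.35 and 5.61 in H1 and 4.18, 4.88, 4.94 and 4.80 in H2. It was the 1 gene of the set whose H2 arrays all lay below the normal arrays, a pattern that 1.08% of all genes showed, and the margin was narrow (4.94 against 4.96). Clec14a differed by -0.99 ± 0.28 in H2 (limma adjusted p = 0.0631), the lowest adjusted p of the set, and by -0.33 ± 0.31 in H1. It was called in H2 without normal replicate 3 or without normal replicate 4 (limma adjusted p = 0.0485 each). Without normal replicate 3, its difference was -0.87, and 1378 of all 18193 genes were called in H2, where 615 were on all arrays. Without each array in turn, that count ranged from 119 to 1378, so these calls give Clec14a no separate support.

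Emcn (endomucin), a sialoglycoprotein of capillaries and veins, lay between 4.06 and 5.98 on the normal arrays, with a median of 4.60. It was 3.56, 3.98 and 4.23 in H1 and 3.45, 3.51, 4.30 and 4.81 in H2, where replicate 7 alone was above the normal median. Emcn had an unadjusted p under 0.05 in each comparison with normal cells, at -0.82 ± 0.37 in H1, -0.73 ± 0.33 in H2 and -0.77 ± 0.27 in all lesions (limma adjusted p = 0.252). Its H1 mean of 3.92 is below the background mark.

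Claudin-5 (Cldn5), the tight junction protein of endothelium, lay between 4.31 and 7.14 on the normal arrays, with a median of 5.10. The lesions were close together, at 4.76, 4.76 and 4.96 in H1 and 4.74, 4.73, 4.46 and 4.73 in H2, and all below the normal median. Cldn5 differed by -0.72 ± 0.33 in all lesions (limma adjusted p = 0.367). VE-cadherin (Cdh5), the adherens junction protein, was also below the normal median on all 7 lesion arrays, with means of 5.19 ± 1.01 (SD, n = 8) for normal, 4.59 ± 0.30 (n = 3) for H1 and 4.61 ± 0.48 (n = 4) for H2. Its difference was -0.59 ± 0.38 in all lesions (adjusted p = 0.533).

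Esam, a junction adhesion molecule, stood on the other side. It lay between 5.45 and 6.93 on the normal arrays, with a median of 6.26, at 6.31, 6.36 and 6.72 in H1 and at 6.52, 6.60, 8.04 and 6.49 in H2. Esam differed by 0.68 ± 0.31 in H2 (limma adjusted p = 0.216), the 1 gene of the set above 0 at an unadjusted p under 0.05. That value rests on H2 replicate 6, without which the difference was 0.30. Robo4, a guidance receptor that stabilises vessels, averaged 4.23 in normal cells and 4.47 in H1, with a difference of 0.24 in all lesions.

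Pecam1 (CD31), an adhesion molecule widely used to stain endothelium, had a weak signal here. Its mean was 4.19 ± 1.14 (SD, n = 8) on normal arrays, 3.26 ± 0.93 on H1 arrays and 4.32 ± 0.66 on H2 arrays, and the differences from normal were -0.93 and 0.13. Podxl (podocalyxin), a surface sialomucin, ranged from 4.50 to 8.43 in normal cells and differed by -0.73 and -0.12. Icam2, a ligand of leukocyte integrins, was below the normal median on every lesion array, though its difference was small, at -0.16 ± 0.17.

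The 4 transcription factors had differences below 0 in H2 on the deposited scale, and that of Prox1 turned to 0.19 with the spread of the array as a covariate. Erg, the ETS factor that maintains endothelial identity, lay between 5.77 and 6.89 on the normal arrays, with a median of 6.44. It was 5.76, 5.68 and 5.93 in H1 and 6.47, 5.10, 5.23 and 6.30 in H2, and replicates 5 and 6 of H2 were the lowest of all arrays. Erg differed by -0.62 ± 0.31 in H1, by -0.64 ± 0.28 in H2 (adjusted p = 0.208) and by -0.63 ± 0.23 in all lesions (limma adjusted p = 0.269).

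Sox17, a factor of arterial endothelium, lay between 4.41 and 5.82 on the normal arrays, with a median of 4.91. It was 4.38, 4.94 and 5.40 in H1 and 4.81, 4.18, 4.06 and 3.78 in H2. All H2 arrays were below the normal median and 3 of the 4 below every normal array, while 2 of the 3 H1 arrays lay inside the normal range, with differences of -0.08 ± 0.33 and -0.78 ± 0.30 (limma adjusted p = 0.153). The related Sox18 had a mean below the background mark in each group, and its highest value, 5.95, was that of normal replicate 3.

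Prox1, the master regulator of lymphatic endothelium, lay between 2.88 and 5.75 on the normal arrays, with a median of 4.88. It was 4.64, 5.03 and 4.30 in H1 and 3.84, 3.43, 3.27 and 3.81 in H2, and the 4 H2 arrays lay below the 3 H1 arrays. It differed by -0.99 ± 0.46 in H2 (limma adjusted p = 0.231), with an H2 mean of 3.59 that is below the background mark. Its further probe sets, with means of 2.66 and 2.20 below that mark, did not share these directions. They differed between H2 and H1 by 1.07 ± 0.44 and 0.14 ± 0.26, and between H2 and normal cells by 0.32 and -0.09. The order of the probe set used ran against that of the mean of the set over the normal arrays. Normal replicates 1 and 3, the 2 highest for the mean of the set, were the 2 lowest for Prox1, at 3.13 and 2.88, and normal replicates 2 and 8 were the 2 highest, at 5.75 and 5.52.

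Of the 6 enzymes, secreted and other surface proteins, Tmem100 differed most. Tmem100 is a membrane protein that BMP9 signalling induces in endothelium. It lay between 3.64 and 9.05 on the normal arrays, with a median of 7.28, and its SD of 2.14 over normal arrays was the largest of the set. The lesions read 6.10, 3.99 and 5.27 in H1 and 6.62, 4.92, 5.31 and 5.73 in H2, all below the normal median and all above normal replicates 2 and 8, at 3.79 and 3.64. Tmem100 differed by -1.50 ± 0.77 in all lesions (limma adjusted p = 0.434).

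Car4, the carbonic anhydrase of the gas-exchanging capillary cell, split the H2 arrays. Replicate 1 of H2 was at 3.40 and replicates 5, 6 and 7 between 6.39 and 6.83, while H1 lay between 3.74 and 4.53. Normal cells ranged from 3.61 to 9.68, and the differences of -1.36 ± 1.05 in H1 and 0.31 ± 0.95 in H2 were within that spread. Gpihbp1, which anchors lipoprotein lipase in capillaries, differed by -0.50 ± 0.28 in H1 and -0.30 ± 0.25 in H2, from 4.33 ± 0.45 (SD, n = 8).

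Vwf, the clotting factor carrier stored by endothelium of larger vessels, averaged 4.52 ± 0.27 on normal arrays, 4.09 ± 0.39 on H1 arrays and 4.45 ± 0.19 on H2 arrays. The secreted Egfl7 averaged 4.60, 4.32 and 4.50 in the same order. The nitric oxide synthase Nos3 averaged 3.86, 3.80 and 3.95, near the background mark throughout. None of these 3 had an unadjusted p under 0.05 in a comparison with normal cells.

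**Figure D3:**
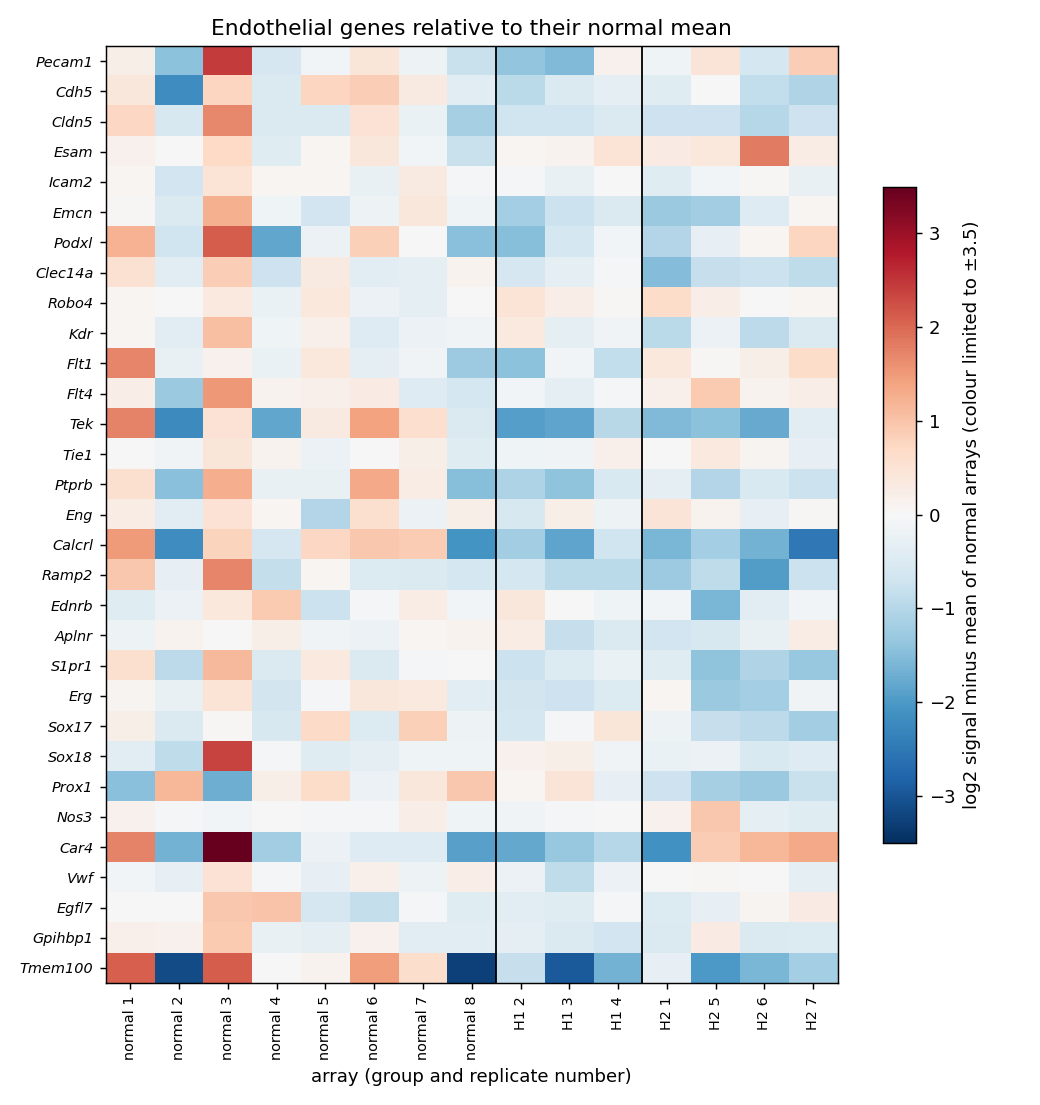
Log2 signal minus the mean of the 8 normal arrays (colour, limited to ±3.5) for 31 endothelial genes (rows) on 15 arrays (columns, labelled by group and replicate number; vertical lines part normal, H1 and H2). Normal replicate 3 is above its group mean for most genes and normal replicate 2 below it, and Calcrl, Ramp2, S1pr1 and Cldn5 are below the normal mean on all 7 lesion arrays.

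The normal arrays differed among themselves more than the lesions did. Averaged over the 31 genes, the level was 4.62 and 4.75 in normal replicates 2 and 8 and 6.27 in replicate 3, with a normal mean of 5.31 ± 0.53 (SD, n = 8). The 7 lesion arrays fell between 4.71 and 4.99. Normal replicate 3 was the highest normal array for 18 of 31 genes and replicate 2 the lowest for 9. The SD over normal arrays exceeded that over lesion arrays for 24 of 31 genes, where it did so for 58.3% of all genes. For 9 genes, every lesion array lay below the normal median, as for 6.27% of all genes. These were Calcrl, Cdh5, Cldn5, Icam2, Ptprb, Ramp2, S1pr1, Tek and Tmem100.

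Other measures of the arrays moved with the endothelial level in normal cells. Normal replicates 1, 3 and 6, with the widest spread of gene values (1.51 to 1.67), had endothelial means of 5.45 to 6.27, and replicates 2 and 8, with the narrowest, had the lowest means. The mean of 9 alveolar type 1 (gas-exchange epithelium) markers ran in a similar order, at 4.55 and 5.67 in normal replicates 2 and 8 and at 9.31 in replicate 3. Whether the lesion arrays keep this order among themselves was not tested. H2 arrays had spreads of 1.52 to 1.78 and alveolar type 1 means of 7.06 to 7.61, and their endothelial means of 4.82 to 4.99 were below those of the 6 other normal arrays, all at 5.00 or above. The H1 arrays, with alveolar type 1 means of 6.17 to 7.35, had endothelial means of 4.71 to 4.98.

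Without normal replicates 2 and 8, the 2 arrays of narrowest spread, Calcrl differed by -2.24 ± 0.32 in all lesions (adjusted p = 0.00994) and Tmem100 by -2.56 ± 0.45 (adjusted p = 0.0334). Both were called, beside 0.0824% of all genes called lower. Replicates 2 and 8 were also the 2 lowest normal arrays for Calcrl, Tmem100 and Ptprb and the only ones that did not lie above all lesion arrays, so leaving them out parts the groups by itself and gives these 3 genes no separate support. The 6 remaining normal arrays were at 7.11 or above for Calcrl, 6.89 or above for Tmem100 and 6.78 or above for Ptprb. All 7 lesion arrays lay below these, at up to 7.01, 6.62 and 6.72, and 0.247% of all genes showed that pattern. With the spread of the array as a covariate on all 15 arrays, 8 of 31 genes were called lower in H2 (Cldn5, Emcn, Podxl, Clec14a, Tek, Ptprb, Calcrl and Ramp2), beside 0.539% of all genes, and 3 in all lesions (Emcn, Tek and Ptprb), beside 0.253%. Spread itself differed between the groups, with a mean of 1.38 in normal cells and 1.64 in H2, and moved with the endothelial level in normal cells. Such a fit cannot fully part group from spread, so these calls give the genes no separate support. With array weights, Clec14a, Calcrl, Ramp2, S1pr1, Sox17 and Prox1 were called lower in H2, beside 3.37% of all genes, and 0 in all lesions, beside 0.077%. With the Actb difference as a covariate, Tek was called lower in H2, beside 0.0989% of all genes, and in all lesions, beside 0.044%. This covariate too differed between normal cells and H2, with means of -0.63 and -0.0028.

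**Figure D4:**
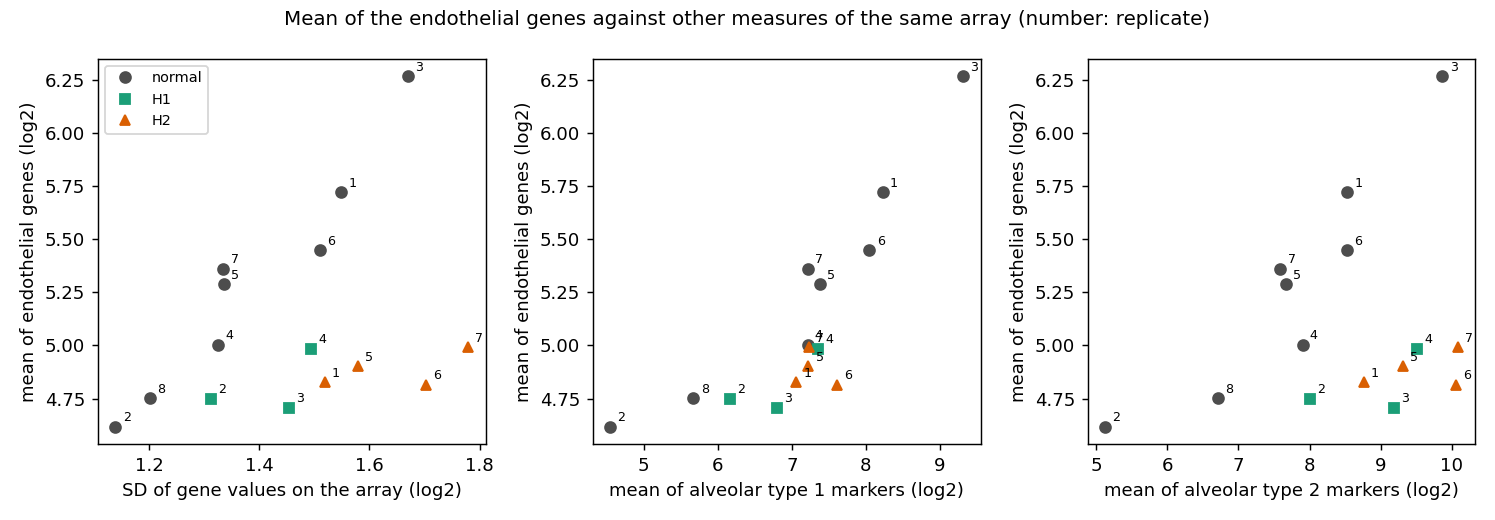
Mean log2 signal of the 31 endothelial genes (y axis) against the standard deviation of gene values on the array, the mean of alveolar type 1 markers and the mean of alveolar type 2 markers (x axes, all log2), 1 point per array, numbered by replicate. The lesion arrays lie between 4.71 and 4.99 on the y axis in each panel.

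Markers of other cells of the captured tissue were read beside these genes. The share of all genes below 0 in lesions, to set beside the counts here, is 57.7%. In lesions against normal, 10 of 10 alveolar type 2 markers were above 0, with a median of 1.75. Of 9 alveolar type 1 markers 6 were below 0 (median -0.28), and of 11 fibroblast markers 6 were (median -0.10). Of 12 smooth muscle and pericyte markers 9 were below 0 (median -0.18), and of 6 platelet markers 5 (median -0.27). So were 3 of 3 red blood cell markers (median -0.33) and 4 of 6 lymphocyte markers (median -0.15). Of 10 macrophage and monocyte markers 3 were below 0 (median 0.25), of 4 cycling cell markers 1 (median 0.34), and of 4 mesothelium markers 2 (median 0.05). The smooth muscle and pericyte markers moved both ways, and 0 of them were called. Pdgfrb had the largest difference of that list, at 2.25 in all lesions. It averaged 5.21 ± 1.90 (SD, n = 8) on normal arrays, 6.64 ± 0.25 (n = 3) on H1 arrays and 8.07 ± 1.11 (n = 4) on H2 arrays. Fibroblast markers moved both ways too. Itga8, an integrin of lung fibroblasts, was called lower in all lesions, by -2.46 ± 0.42 (adjusted p = 0.0267), and in H2, by -3.06 ± 0.42 (adjusted p = 0.0028), and the collagen gene Col1a2 was called higher in H2, by 1.57 ± 0.37 (adjusted p = 0.0341). Among 7 airway and epithelial markers, Cdh1 (E-cadherin) was called higher in H2, by 1.88 ± 0.39 (adjusted p = 0.02), and Cyp2f2 by 1.57 ± 0.36 (adjusted p = 0.0308), as was the alveolar type 2 marker Abca3, by 2.35 ± 0.52 (adjusted p = 0.0249). Itga8, Col1a2, Cdh1, Cyp2f2 and Abca3 were named after their values were seen, because they were the markers called. Pdgfrb was also named after its values were seen. Platelets share Pecam1 and Vwf with endothelium, and their markers averaged 4.47 to 5.06 in normal cells, 4.38 to 4.68 in H1 and 4.21 to 4.44 in H2. The part of these cells in the endothelial values was not tested.

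Further probe sets existed for 16 of the 31 genes, 24 in all, on the same arrays. Of these, 22 were below 0 in lesions against normal, where 56.7% of all further probe sets were, and 0 of the 24 were called by limma over 34945 probe sets. Of the 12 with a mean above 3.99, all were below 0, beside 47.4% of all such probe sets. The second probe set of Tmem100 differed by -1.56 ± 0.41 (adjusted p = 0.141) and that of Ptprb by -1.05 ± 0.41. Those of Cdh5 differed alike, at -0.59 each. The 2 dimmer probe sets of Calcrl differed by -0.46 and -0.32, and 3 of the 24, of Aplnr, Flt4 and Sox17, had the opposite sign to the one used. In all lesions, the second of Aplnr differed by 0.67, against -0.32, and the second of Sox17 by 0.46, against -0.48. In H2 against normal 18 of 24 were below 0 (54% of all further probe sets), and 6 had the opposite sign. The largest of these was that of Aplnr, at 1.46 ± 0.50 (adjusted p = 0.129) against -0.30, followed by that of Sox17, at 0.72 against -0.78. The means of these further probe sets of Aplnr and Sox17, 3.87 and 3.40, lie below the background mark. Of the 12 with a mean above 3.99, 9 were below 0 in H2, beside 44.6% of all such probe sets, and 9 had the sign of the one used. The others were of Flt1, at -0.49 and -0.30 against 0.32, and of Eng, at -0.27 against 0.08. In H2 against H1, 12 of 24 were below 0 (46.8% of all further probe sets), and 13 had the sign of the one used. Those of Aplnr, at 1.84 ± 0.63, and Prox1, at 1.07 ± 0.44, had an unadjusted p under 0.05 there, and 0 of the 24 were called. Both have means below the background mark, at 3.87 and 2.66.

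Other genes of vessels were taken from lists of ligands and co-receptors, of transcription factors and of further vessel lining genes. No gene of the 3 lists was called in any comparison, and the shares of all genes to set beside the counts in all lesions are 57.7% below 0, 4.66% lower and 8.1% higher at an unadjusted p under 0.05. Of 27 further lining genes, 18 were below 0 in lesions (median -0.22), with 4 lower and 0 higher at an unadjusted p under 0.05. Acvrl1 (ALK1), the endothelial receptor of BMP9, averaged 5.55 ± 1.13 on normal arrays, 4.00 ± 0.22 on H1 arrays and 3.93 ± 0.23 on H2 arrays, and differed by -1.59 ± 0.40 in all lesions (limma adjusted p = 0.0981). The hyaluronan receptor Lyve1, of lymphatic endothelium and some macrophages, differed by -0.87 ± 0.26, the prostaglandin-degrading enzyme Hpgd by -1.99 ± 0.61 and the anticoagulant receptor Thbd by -1.51 ± 0.68. In H1 against normal, 4 of the 27 were lower and 2 higher at an unadjusted p under 0.05 (2.39% and 1.85% of all genes). The 2 higher were Cd34, by 1.09 ± 0.31, and Ephb4, by 0.65 ± 0.28 (limma adjusted p = 0.997 each). For Cd34, all H1 arrays lay above all normal arrays (0.5% of all genes).

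Of 18 transcription factors, 10 were below 0 in lesions (median -0.02), close to the share of all genes, with 4 lower and 0 higher at an unadjusted p under 0.05. Foxf1, a forkhead factor of lung mesenchyme and capillaries, averaged 8.34 ± 1.09 on normal arrays, 7.21 ± 0.29 on H1 arrays and 6.81 ± 0.23 on H2 arrays (adjusted p = 0.163 for all lesions). The flow-responsive Klf4 differed by -1.92 ± 0.53 in H1 and -0.78 ± 0.48 in H2, Sox7 by -0.55 and Gata2 by -0.44 in all lesions. Of 18 ligands and co-receptors, 13 were below 0 (median -0.20), with 3 lower and 2 higher at an unadjusted p under 0.05. Bmp6, a bone morphogenetic protein that vessels make, differed by -1.15 ± 0.37 and the lymphatic growth factor Vegfd by -0.79 ± 0.27. The Notch ligand Dll4 differed by -0.45 and the Notch ligand Jag1 by 1.03 ± 0.44, with 1.67 in H2 (adjusted p = 0.053).

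H2 was then set against H1. Limma called 0 of the 31, beside 0.0055% of all genes, and 0 were lower and 1, Flt1, higher at an unadjusted p under 0.05 (4.9% and 7.41% of all genes). The median difference was 0.06, the same as for all genes to 2 decimals. The H2 arrays lay below all H1 arrays for 4 genes (Clec14a, Cldn5, Prox1 and Sox18), beside 8.1% of all genes, and above them for 2 (Flt1 and Flt4), beside 10.1%. On the deposited scale, 13 of 31 were lower in H2 (45% of all genes), and with the spread of the array as a covariate 25 of 31 were (48.7% of all genes), with a median of -0.52, against 0.013 for all genes. Every H2 array had a wider spread than every H1 array (1.52 or more against up to 1.49), so that fit cannot part lesion type from spread. Without the covariate, the largest differences were those of Car4, at 1.67 ± 1.18, Flt1, Prox1, at -1.07 ± 0.58, and Pecam1, at 1.06 ± 0.69, and of these Flt1 alone had an unadjusted p under 0.05. With 3 arrays against 4, differences of this size are not told apart from the spread between arrays.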

How the data were processed

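Gene expression was measured on 15 Affymetrix arrays. The authors deposited log2 values, and affy and RMA are named in the submitters' processing notes without a version. Array medians ranged from 3.87 to 4.06. Of 45101 probe sets, 64 were controls, 34945 had 1 gene symbol in the platform annotation, 932 had several and 9160 none. Of those with 1 symbol, 34741 matched the GRCm38.p6 gene table by gene ID, and 0 symbols changed. The probe set with the highest mean stood for each of 18193 genes.

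Limma 3.58.1 (R 4.3.3; lmFit and eBayes, two-sided) was fitted with 3 groups for H1 and H2 and with 2 groups for all lesions, and p-values were adjusted by Benjamini-Hochberg over all genes of a comparison, with a threshold of 0.05. The fits were tested on simulated data. Values on every array are given for genes with an unadjusted p under 0.05 in any comparison and for the 6 with the highest mean. Of each further vascular list, up to 4 genes with the lowest p in all lesions are named. Cd34 and Ephb4 are named besides, after their H1 values were seen. The genes of the set and the lists were chosen with earlier results of these data known. Alternatives were another scaling, normalization, filter, probe set rule, prior, weighting, block, covariate or choice of arrays. Nothing in the labels says that the arrays of a group came from separate animals, so p-values measure the spread between these captures.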

Additional observations from a re-analysis of the deposited data

Results flagged for a closer look

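In 10 of 62 groups of arrays checked, 1 array stood far from the others of its group for 1 gene, by Dixon's test at its 95% level, which chance alone would do in about 1 of 20 independent groups. The 62 groups were read on the same arrays and are not independent. The share over all genes was not computed, so no excess is read from this count. Among normal arrays, replicate 3 was high for Kdr (5.31), Sox18 (5.95) and Gpihbp1 (5.25), and replicate 2 was low for Cdh5 (3.03). Among H2 arrays, replicate 6 was low for Cldn5 (4.46) and high for Esam (8.04), and replicate 5 was high for Flt4 (7.13) and Gpihbp1 (4.63). Replicate 1 was low for Car4 (3.40) and replicate 7 for Vwf (4.17). Groups of 3 arrays were not checked.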

How the results depend on the processing

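The median difference of the endothelial genes stayed below 0 in H1, H2 and all lesions against normal under the 11 alternatives given here and without each array in turn. The number of endothelial genes called did not. It stayed at 0 in H1 against normal and in H2 against H1 throughout. Signals near background, 3 H1 arrays and captures of unknown origin limit precision; the cause of each change below was not tested. Of 539 values of single genes, 499 kept their direction and side of the threshold. The share of all genes lower at an unadjusted p under 0.05 was not computed under the alternatives or without single arrays. No excess is therefore read from the counts at that threshold below.

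With the spread of the array as a covariate, 8 genes of the set were called in H2 and 3 in all lesions, and 12, 17 and 15 were lower at an unadjusted p under 0.05 in H1, H2 and all lesions and 5 in H2 against H1. The median was -0.95 in H2 against normal and -0.52 in H2 against H1. Over all genes, 21, 155, 86 and 0 were called in H1, H2, all lesions and H2 against H1. Flt1 in H2 turned to -0.35, Flt4 to -0.46 in H2 and -0.35 in all lesions, and Prox1 to 0.19 and 0.22.

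With the Actb difference as a covariate, 1 gene of the set, Tek, was called in H2 and in all lesions, 3 were lower at an unadjusted p under 0.05 in H2 against H1, and 92 of all genes were called in H2 and 0 in H2 against H1. Flt4 turned to -0.0021 in H2 and -0.062 in all lesions. Without normal replicates 2 and 8, 2 genes of the set were called in H2 and in all lesions and 10 were lower at an unadjusted p under 0.05 in H1. Of all genes, 347 were called in H2 and 2 in H2 against H1, and Flt4 was -0.18 in all lesions.

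With array weights, 6 genes of the set were called in H2, and 8 in H1 and 5 in H2 against H1 were lower at an unadjusted p under 0.05. Of all genes, 18, 2199, 222 and 184 were called in H1, H2, all lesions and H2 against H1, where 2, 615, 53 and 1 were otherwise. Prox1 in H1 was -0.019.

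Centred arrays left 1 gene of the set lower in H1 at an unadjusted p under 0.05, and Kdr there was 0.0057. Repeated quantile normalization left 4 in H1 and 1 in H2 against H1, with 201 of all genes called in H2 and 0 in H2 against H1, Kdr at 0.039 and Prox1 at -0.013 in H1, and Flt4 at -0.033 in all lesions. The mean of a gene's probe sets left 6 in H1, with 0 of all genes called in H1 and in H2 against H1, Sox17 at 0.019 and Prox1 at -0.30 in H1, and Flt1 at -0.070 in H2. A trended prior called 0 genes in H2 against H1. Fits of only the arrays compared called 1 gene in H1, 391 in H2 and 0 in H2 against H1, where 2 genes of the set were lower at an unadjusted p under 0.05.

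Whether replicate numbers pair the arrays was not settled. Correlations of deviations in 7 pairs ran from -0.14 to 0.38, 4 were over 0.1, and 1 lesion array correlated best with its own number. No reference for unpaired arrays was computed, so this check cannot exclude pairing by number. With the replicate block, 0, 39, 93 and 0 of all genes were called in H1, H2, all lesions and H2 against H1, 0 of the set in each, and 2 of the set were lower at an unadjusted p under 0.05 in H2 against H1. Sox17 in H1 was 0.27 and Flt1 in H2 -0.086 with the block.

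Without each array in turn, the genes of the set called in H2 ranged from 0 to 1 (Clec14a). Those lower at an unadjusted p under 0.05 ranged from 0 (without normal replicate 1) to 7 (without normal replicate 2) in H1, from 5 (without H2 replicate 6) to 11 in H2, from 7 to 11 in all lesions and from 0 to 3 in H2 against H1. All genes called ranged from 1 to 5 in H1, from 119 (without H2 replicate 7) to 1378 (without normal replicate 3) in H2, from 8 (without H2 replicate 5) to 238 (without H1 replicate 2) in all lesions and from 0 to 2 in H2 against H1. The sign turned for 4 genes in H1, with ranges of -0.24 to 0.10 for Kdr, -0.34 to 0.060 for Flt4, -0.33 to 0.18 for Sox17 and -0.16 to 0.26 for Prox1. In all lesions it turned for Flt1 (-0.34 to 0.086) and Flt4 (-0.046 to 0.36).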
